A study of Danio rerio with 2 samples.

Results

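The cytosolic ribosomal protein and translation factor genes of the zebrafish embryo were compared between embryos given a phf14 morpholino and embryos given a standard one. Genes were taken by symbol: large subunit proteins (rpl and rplp), small subunit proteins (rps and rpsa, without the rps6k kinases), initiation factors (eif) and elongation factors (eef), each with a mean expression of at least 1 over the 2 deposited tables. The rule found 39 of the 4591 listed genes, comprising 14 rpl, 12 rps, 10 eif and 3 eef genes. All 39 symbols that fit the pattern passed the minimum. The lowest was eef2l2, with a mean of 1.475, and the next was eif2ak1, with a mean of 6.695. The tables list a part of the annotated genes, and other members of these families were not analysed here.

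Both groups were whole embryos of the Tuebingen strain taken 4.7 h after fertilization, at the late blastula stage. Morpholinos are antisense oligomers that pair with a chosen RNA and stop its translation or splicing. The phf14 group received 5 ng of a phf14 morpholino and the control group 5 ng of a standard morpholino, both at the 1-cell stage. PHF14 recognises histone H3 in chromatin, and the series asks about its part in switching on the embryo's own genes. Each condition has 1 library, so nothing below has a replicate error or a p-value, and every difference is between these 2 libraries. How many embryos were pooled is not stated in the labels, and phf14 itself was not analysed here, so the knockdown could not be checked. In whole embryos, fewer cells of a type and less RNA per cell cannot be told apart.

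A ribosome consists of a small 40S subunit, which reads the mRNA, and a large 60S subunit, which joins amino acids and carries the tunnel through which the new chain leaves. Initiation factors bring the mRNA cap, the initiator tRNA and the 40S subunit together, and elongation factors deliver aminoacyl-tRNAs and move the ribosome along. The egg is supplied with ribosomes and with mRNAs for their proteins by the mother, and the embryo later transcribes these genes itself. The deposited tables do not separate the RNA of these sources.

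The deposited values of all listed genes summed to 71136 in the phf14 morpholino library and 75675 in the standard morpholino library. Each log2 ratio below is log2(value + 1) in the phf14 library minus that in the standard library, so the difference of a weakly expressed gene is understated. Over the 3524 genes whose mean was 1 or more, the ratio had a median log2 ratio of 0.11. It was negative in 37.2% of these genes and positive in 62.3%. All 8 marker genes chosen for the late blastula, among them tbxta, vox and sox3, were listed, with values between 42.66 and 310.22 in the phf14 library and between 37.72 and 313.15 in the standard library. Of these markers 7 of 8 were lower in the phf14 library. Among genes outside the translation families, 47.3% were lower with means of 10 to 100 and 87.5% with means of 100 or more. The part of the markers in the differences below was not tested. Of 6 markers of later tissues only lcp1 was listed, at 69.16 in the phf14 library and 85.59 in the standard library.

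Most of the translation genes had lower values in the phf14 library. Of the 39 genes, 31 (79.5%, against 37.2% of all genes) were lower and 8 (against 62.3%) higher, and their median log2 ratio was -0.12. Of the 39, 35 were below the median of the 3524 genes with a mean of 1 or more, and 4 were above it. By definition 50.0% of those 3524 genes lie below it. All 4 translation genes above it were eif genes (eif3k, eif4g3b, eif4ebp2 and eif2ak1). These shares of all genes do not allow for the level of a gene. With means of 100 or more, 87.0% of 23 translation genes were lower, against 87.5% of 80 other genes. The families differed in how far their genes spread. The rpl genes had a median of -0.21 and an SD across genes of 0.29, the rps genes -0.09 and 0.084, the eif genes -0.04 and 0.34, and the eef genes -0.19 and 0.071. Over all 3524 genes the SD was 0.35, and over the 80 other genes with means of 100 or more it was 0.25. The rpl SD includes rpl26 and rpl39, with log2 ratios of -1.07 and -0.65, and the eef SD rests on 3 genes. These SDs describe differences among genes and are no measurement error.

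The balance of higher and lower genes depends on the scaling between the libraries. With the values centred on the median gene, or scaled by a trimmed mean of the ratios, 4 genes were higher and 35 lower. With each library scaled to the sum of its listed values, 16 were higher and 23 lower. The rpl, rps and eef medians were below 0 under each of these scalings, although with the library sums that of rps was -0.002, nearly level. The eif median was above 0 (0.04) with the library sums.

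**Figure D1:**
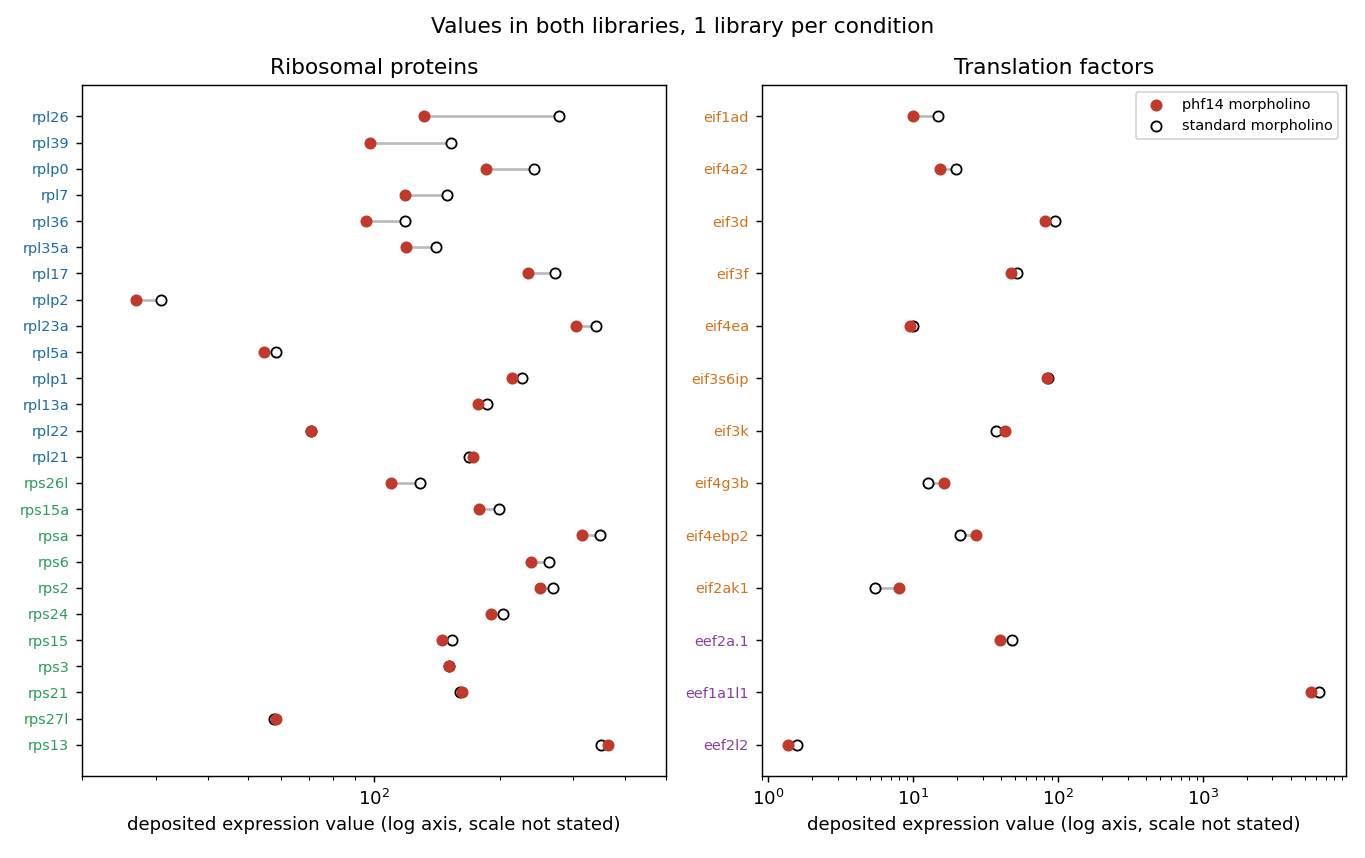
Deposited expression value of 38 of the genes (horizontal log axis, scale not stated) in the phf14 morpholino library (filled red) and the standard morpholino library (open), with ribosomal protein genes on the left (rpl blue, rps green) and translation factor genes on the right (eif orange, eef purple). The longest gap is that of rpl26, at 131.85 in the phf14 library and 277.49 in the standard library, whereas rps3 and rpl22 nearly coincide.

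The large subunit proteins held the 2 genes past 1.5-fold. Below the 1.5-fold limit were 2 of 39 genes, or 5.13%, against 2.84% of all 3524 genes, and above it 0 of 39, against 4.94% of all genes. Past 2-fold lower was 1 of the 39, against 0.482% of all genes, and past 2-fold higher 0, against 0.341%. With counts this small the shares are a description of these libraries.

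The gene past 2-fold was rpl26 (ENSDARG00000102317), which encodes a protein at the rim of the exit of the peptide tunnel. Its value was 131.85 in the phf14 library and 277.49 in the standard library, a log2 ratio of -1.07. The phf14 library thus held 47.5% of the standard value. Only 13 of the 3524 genes had a lower log2 ratio, and among the 103 genes whose mean was 100 or more there was 1, the transcription factor gene gtf2a1. For comparison, rpl17, which had nearly the same value as rpl26 in the standard library (271.31), was at 233.56 in the phf14 library, and the value of rpl26 over that of rpl17 was 0.565 in the phf14 library and 1.02 in the standard library. A ratio of 2 values within a library does not depend on the scaling between libraries.

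The second was rpl39 (ENSDARG00000036316), which encodes one of the smallest ribosomal proteins and also lines the tunnel. It had a value of 97.72 in the phf14 library and 153.38 in the standard library, with a log2 ratio of -0.65. Of the 3524 genes, 68 had a lower ratio, and of those with a mean of at least 100 it was 2, gtf2a1 and rpl26. With each library scaled to its sum of listed values, the log2 ratio of rpl26 was -0.98, short of 2-fold, and that of rpl39 was -0.56, short of 1.5-fold. The tables give 1 value per gene, so no transcript or part of rpl26 or rpl39 could be looked at alone.

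The proteins of rpl17 and rpl23a also surround the tunnel, and rpl23a helps to form the platform on which chaperones and the signal recognition particle dock. The value of rpl17 had a log2 ratio of -0.22. rpl23a was at 304.70 in the phf14 library and 339.81 in the standard library (log2 ratio -0.16). The 4 genes named here were thus all lower in the phf14 library, with log2 ratios that ran from -1.07 to -0.16. Each has a mean of 100 or more, and of the 80 other genes with such means 70 (87.5%) were also lower. This group was put together after the values had been seen, and it may leave out listed genes whose proteins lie near the tunnel.

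The stalk of the 60S subunit, which recruits the GTPases of elongation, was represented by its base and both of its acidic arms. The base, rplp0, was at 185.22 in the phf14 library and 241.15 in the standard library (log2 ratio -0.38). The arm gene rplp1 was at 213.73 and the arm gene rplp2 at 26.86 in the phf14 library, against 226.30 and 30.92 in the standard library. Their log2 ratios were -0.08 and -0.20. The base was therefore further down than either arm, and rplp0 over rplp1 was 0.867 in the phf14 library and 1.07 in the standard library. Of the 103 genes with a mean of 100 or more, 13 had a lower log2 ratio than rplp0. At that level, which rplp1 shares, 87.5% of the 80 other genes were lower. Their median was -0.21, with an SD across genes of 0.25.

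Among the other large subunit genes, rpl7 and rpl36 were the lowest. rpl7 was at 118.62 in the phf14 library and 149.74 in the standard library (log2 ratio -0.33). rpl36 was at 95.53 in the phf14 library and 118.74 in the standard library (-0.31). rpl35a, one of the genes mutated in human Diamond-Blackfan anaemia, was at 119.38 in the phf14 library and 140.46 in the standard library (-0.23). These genes stood between the pair past 1.5-fold and the family's centre.

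The remaining rpl genes were close to level. rpl5a, whose protein carries the 5S RNA into the subunit, was at 54.63 in the phf14 library and 58.37 in the standard library (log2 ratio -0.09). rpl13a was at 177.81 in the phf14 library and 186.13 in the standard library (-0.07), and it is often used as a reference gene in quantitative PCR. rpl22 was at 70.65 in the phf14 library and 70.80 in the standard library (-0.003). rpl21 was the only rpl gene with a higher value, at 172.57 in the phf14 library and 168.65 in the standard library (0.03). That excess is below the median gene's 0.11. Relative to the median gene all 14 rpl genes were therefore lower, against 50.0% of all genes by definition. Most rpl genes had means of 100 or more. There 87.5% of the 80 other genes had a log2 ratio below 0, which 13 of the 14 rpl genes had. How many of those 80 genes were below the median gene was not computed. The median of those other genes was -0.21, as was that of the rpl genes.

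**Figure D2:**
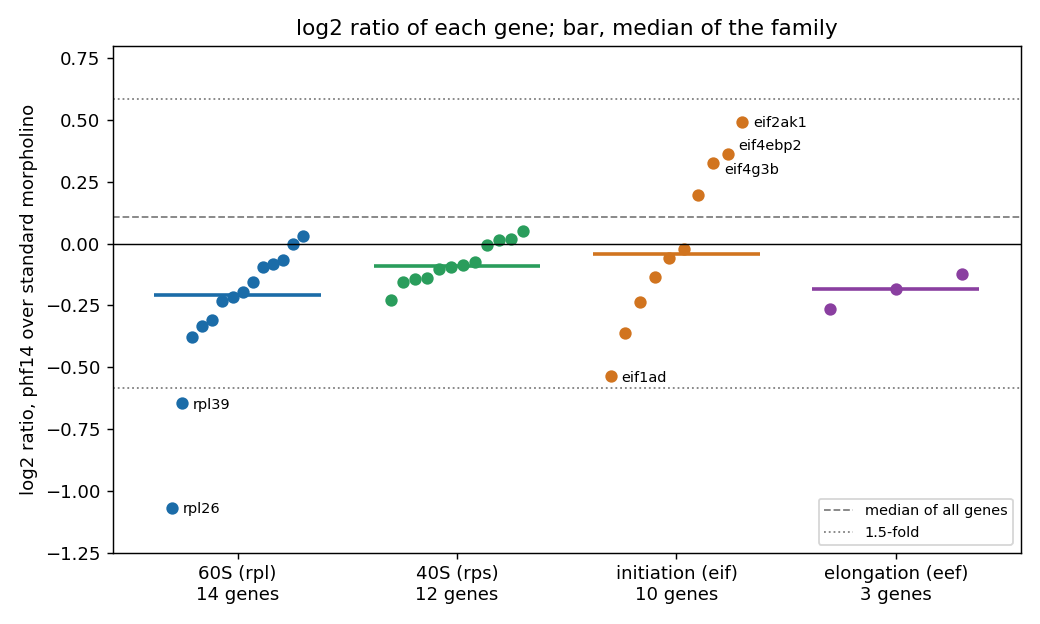
log2 ratio of the phf14 over the standard morpholino library (vertical axis) for each gene, sorted within its family, with a bar at the family's median, a dashed line at the median of all genes (0.11) and dotted lines at 1.5-fold. rpl26 and rpl39 lie below the lower dotted line, the rps genes form the tight series from -0.23 to 0.05, and the eif genes run from -0.54 to 0.49.

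The small subunit proteins lay in a narrow band. Of the 12 rps genes, 9 were lower (37.2% of all genes were) and 3 higher (62.3%) in the phf14 library. Their log2 ratios ran from -0.23 to 0.05, with none past 1.5-fold. Relative to the median gene all 12 were lower, against 50.0% of all genes by definition. Most had means of 100 or more. At that level 87.5% of the 80 other genes had a log2 ratio below 0, which 9 of the 12 rps genes had. The share of those 80 genes below the median gene was not computed. The median of those other genes was -0.21, and that of the rps genes was -0.09. With each library scaled to its sum of listed values, the rps median was -0.002.

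The lowest rps gene was rps26l (ENSDARG00000030408, named RPS26 in the gene name table), whose protein sits at the channel by which mRNA leaves the subunit. It was at 110.02 in the phf14 library and 129.18 in the standard library (log2 ratio -0.23). rps15a was at 178.68 in the phf14 library and 199.11 in the standard library (-0.16). rpsa, which encodes a protein also known as a laminin receptor precursor, was at 314.99 in the phf14 library and 348.15 in the standard library (-0.14). Each of these values in the phf14 library was between 85.2% and 90.5% of that in the standard library.

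rps6, whose protein is the classic substrate of the S6 kinases, was at 237.62 in the phf14 library and 262.01 in the standard library (log2 ratio -0.14). rps2 and rps3, whose proteins line the channel by which mRNA enters, differed in their ratios. rps2 was at 249.98 in the phf14 library and 268.44 in the standard library (-0.10), and rps3 at 150.95 in the phf14 library and 151.36 in the standard library (-0.004). rps15, of the head of the subunit, had a log2 ratio of -0.07, and rps24 one of -0.10.

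The 3 rps genes with higher values were rps21, rps27l and rps13. rps21 was at 162.14 in the phf14 library and 160.65 in the standard library (log2 ratio 0.01). rps27l, a copy of rps27 that p53 induces in mammals, was at 58.37 in the phf14 library and 57.54 in the standard library (0.02). rps13 was at 363.15 in the phf14 library and 350.64 in the standard library (0.05). All 3 are below 0 after centring on the median gene.

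Summed over genes, the values of the 14 rpl genes were 2003 in the phf14 library and 2433 in the standard library, a difference of 17.7%. Those of the 12 rps genes were 2458 in the phf14 library and 2598 in the standard library, a difference of 5.4%. The sum of all listed values was 6.0% lower in the phf14 library. Within the rpl sum the largest single difference was that of rpl26, at 131.85 in the phf14 library and 277.49 in the standard library. As a share of all listed values, rpl genes made up 2.82% in the phf14 library and 3.22% in the standard library, while rps genes made up 3.46% in the phf14 library and 3.43% in the standard library. On that scale the rps share was slightly higher and the rpl share lower in the phf14 library. Whether the deposited values are per transcript length is not stated, so sums and shares over genes are in the units of the tables and do not count molecules.

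Initiation factors were the widest of the 4 families, but their SD of 0.34 was close to the 0.35 of all 3524 genes. Of the 10 eif genes, 6 were lower (37.2% of all genes were) and 4 higher (62.3%) in the phf14 library. None was past 1.5-fold as the values were deposited. Their median of -0.04 was close to 0, and their mean was 0.004, so the median and the mean differ in sign. The lowest was eif1ad (ENSDARG00000016280), which encodes a protein with a domain like that of eIF1A and is known in human cells from the maturation of the 40S subunit. Its value was 9.91 in the phf14 library and 14.82 in the standard library (log2 ratio -0.54). Centring on the median gene gave -0.65 and the trimmed mean factor -0.67, both past 1.5-fold, and the count of translation genes past 1.5-fold lower was then 3.

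The genes of the cap complex, a group put together after the values had been seen, did not share a direction. The helicase gene eif4a2, whose protein unwinds the leader of the mRNA, was at 15.15 in the phf14 library and 19.74 in the standard library (log2 ratio -0.36). The cap binding gene eif4ea was at 9.44 in the phf14 library and 9.87 in the standard library (-0.06). The scaffold gene eif4g3b, whose protein bridges the cap binder and the helicase, was at 16.17 in the phf14 library and 12.69 in the standard library (0.33). The helicase was thus lower and the scaffold higher under each pseudocount and scaling tried, with ranges of -0.50 to -0.28 and 0.19 to 0.41. A scaling moves all genes by nearly the same amount, so a kept sign does not measure noise. Of all 3524 genes, 9.05% had a lower log2 ratio than eif4a2 and 76.3% a lower one than eif4g3b.

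The 2 listed genes whose products hold initiation back were both higher in the phf14 library, as were 62.3% of all genes. eif2ak1 (ENSDARG00000093182) encodes a kinase that phosphorylates eIF2 when haem is short and under other stress. It had the highest log2 ratio of all 39 genes, 0.49, at 8.0 in the phf14 library and 5.39 in the standard library. eif4ebp2 (ENSDARG00000031819) encodes a protein that binds eIF4E and keeps it from the scaffold until mTOR phosphorylates it. It was at 27.20 in the phf14 library and 20.91 in the standard library (0.36), and the value of eif4ebp2 over that of eif4ea was 2.88 in the phf14 library and 2.12 in the standard library. Of all 3524 genes, 90.7% had a lower log2 ratio than eif2ak1 and 79.8% a lower one than eif4ebp2, so neither stood at the edge of the listed genes. This pair was put together after the values had been seen.

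Of eIF3, the large scaffold on the 40S subunit, 4 subunits were listed. eif3d, whose protein can bind the cap of some mRNAs in human cells, was at 80.24 in the phf14 library and 94.65 in the standard library (log2 ratio -0.24). eif3f was at 46.91 in the phf14 library and 51.62 in the standard library (-0.14). The peripheral pair eIF3k and eIF3l bind each other. eif3s6ip, named EIF3L in the gene name table, was at 83.43 in the phf14 library and 84.70 in the standard library (-0.02), and eif3k at 43.03 in the phf14 library and 37.38 in the standard library (0.20). The eIF3 subunits therefore did not share a direction.

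The elongation factors were lower in 3 of 3 cases, against 37.2% of all genes. eef1a1l1 (ENSDARG00000020850), which encodes eEF1A, the factor that delivers aminoacyl-tRNA, was at 5520.76 in the phf14 library and 6276.89 in the standard library (log2 ratio -0.19). Among the 80 other genes with means of 100 or more, 87.5% were lower, with a median of -0.21. The gene eef1a1l1 alone made up 7.76% of the listed values in the phf14 library and 8.29% in the standard library. Its difference was 16.7% of the net difference between the summed values of the libraries, in which rises and falls cancel in part. eef2a.1, which encodes eEF2, the factor that moves the ribosome by a codon, was at 39.59 in the phf14 library and 47.75 in the standard library (-0.26). eef2l2, named EEF2 in the gene name table, was at 1.37 in the phf14 library and 1.58 in the standard library (-0.12). The eef2l2 values are low, and its log2 ratio ran from -0.23 to -0.05 over the pseudocounts and scalings tried.

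All 39 genes together summed to 10362 in the phf14 library and 11710 in the standard library. They made up 14.6% of the listed values in the phf14 library and 15.5% in the standard library. Their difference was 29.7% of that between the library sums. The latter is a net of rises and falls, so 29.7% is not a fraction of all that fell. Without eef1a1l1 they summed to 4841 in the phf14 library and 5433 in the standard library. These shares were therefore slightly lower in the phf14 library with and without the gene of eEF1A, at 6.81% in the phf14 library and 7.18% in the standard library without it.

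**Figure D3:**
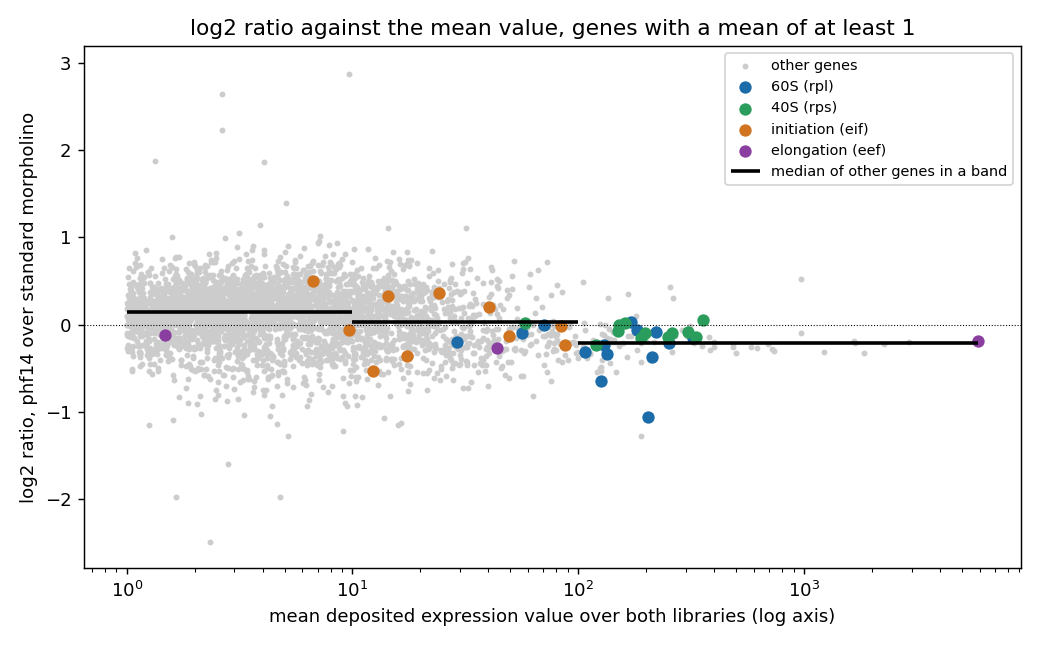
log2 ratio of the phf14 over the standard morpholino library (vertical axis) against the mean deposited value over both libraries (horizontal log axis) for all genes with a mean of at least 1, with translation genes in colour and the median of the other genes in 3 bands of the mean as black lines. The lines lie at 0.14, 0.03 and -0.21, and most ribosomal protein genes lie in the band from 100 upward.

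The log2 ratio varied with the mean value over all listed genes, and 22 of the 26 ribosomal protein genes had a mean of at least 100. In that band 20 of 23 translation genes were lower in the phf14 library, or 87.0%, with a median log2 ratio of -0.14. Of the 80 other genes in the band 70 were lower, or 87.5%, with a median of -0.21. Set beside genes of such values, the direction of the translation genes was that of the other genes, and their median was nearer to 0. In this band rpl26 and rpl39 had the lowest log2 ratios of the translation genes, and gtf2a1, which is not one of them, lay below both.

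In the band from 10 to 100 the translation genes were lower in 9 of 13 cases, with a median of -0.09, against 420 of 888 other genes (47.3%) with a median of 0.03. In the band from 1 to 10 they were lower in 2 of 3 cases, with a median of -0.06, against 31.4% of the 2517 other genes with a median of 0.14. Here the translation genes lay below the other genes, with few genes on their side. No test of these differences is possible with 1 library per condition.

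Genes that work with the ribosome but are outside the symbol rule were taken from 7 lists. Of 89 ribosome assembly genes 12 were measured, of which 9 were lower and 3 higher in the phf14 library, with a median log2 ratio of -0.12. Lower values were found in 37.2% of all genes and in 47.3% of the other genes with means from 10 to 100. The lowest was rrp15, which acts in 60S assembly, at 31.54 in the phf14 library and 43.78 in the standard library (-0.46). The rRNA methyltransferase gene nop2 was at 18.91 in the phf14 library and 25.95 in the standard library (-0.44). The highest was taf1b, which encodes a subunit of the factor that recruits RNA polymerase I, at 2.50 in the phf14 library and 2.11 in the standard library (0.17).

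The list of mTOR pathway and S6 kinase genes had 6 measured genes of 26. In it 3 are rps6ka genes, a family of kinases known from the MAP kinase pathway, and 3 are genes of mTOR components and their regulators. mTOR controls the translation of ribosomal protein mRNAs. Of the 6, 5 were higher and 1 was lower in the phf14 library (62.3% of all genes were higher), with a median log2 ratio of 0.15, which is close to the 0.11 of the median gene. The range was from the rheb-related gene rhebl1, at 74.79 in the phf14 library and 78.84 in the standard library (-0.08), to the kinase gene rps6ka3b, at 2.66 in the phf14 library and 1.68 in the standard library (0.45). tsc1a, which encodes a subunit of the complex that restrains mTOR, was at 53.41 in the phf14 library and 42.98 in the standard library (0.31).

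For proteins that meet the new chain at the ribosome, 3 of 23 genes were measured. btf3, a subunit of the nascent chain associated complex, was at 175.15 in the phf14 library and 203.52 in the standard library (log2 ratio -0.22), whereas srp9, of the signal recognition particle, was at 25.32 in the phf14 library and 19.58 in the standard library (0.35). Of 9 mitochondrial translation factor genes 3 were measured, with a median of -0.01, from mtrf1l (-0.53) to mtif2 (0.18). No gene of the lists of cytosolic aminoacyl-tRNA synthetases, of termination and recycling factors or of poly(A) binding proteins was analysed here.

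faua encodes a ribosomal protein made as a fusion with a ubiquitin-like domain, and the rule does not catch its symbol. It was at 71.60 in the phf14 library and 77.81 in the standard library (log2 ratio -0.12). This lay within the range of the rps genes. The 11 listed genes for mitochondrial ribosomal proteins, the closest set in function, had 7 higher and 4 lower values in the phf14 library and a median of 0.06, with a range from -0.32 to 0.64. Higher values in 7 of 11 is close to the 62.3% of all genes. The values of this set were at most 27.04 in the phf14 library and 25.79 in the standard library. By contrast, 22 of the 26 cytosolic ribosomal protein genes had means of 100 or more, so the sets also differ in level. Both faua and the mitochondrial set were added after the values had been seen.

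**Figure D4:**
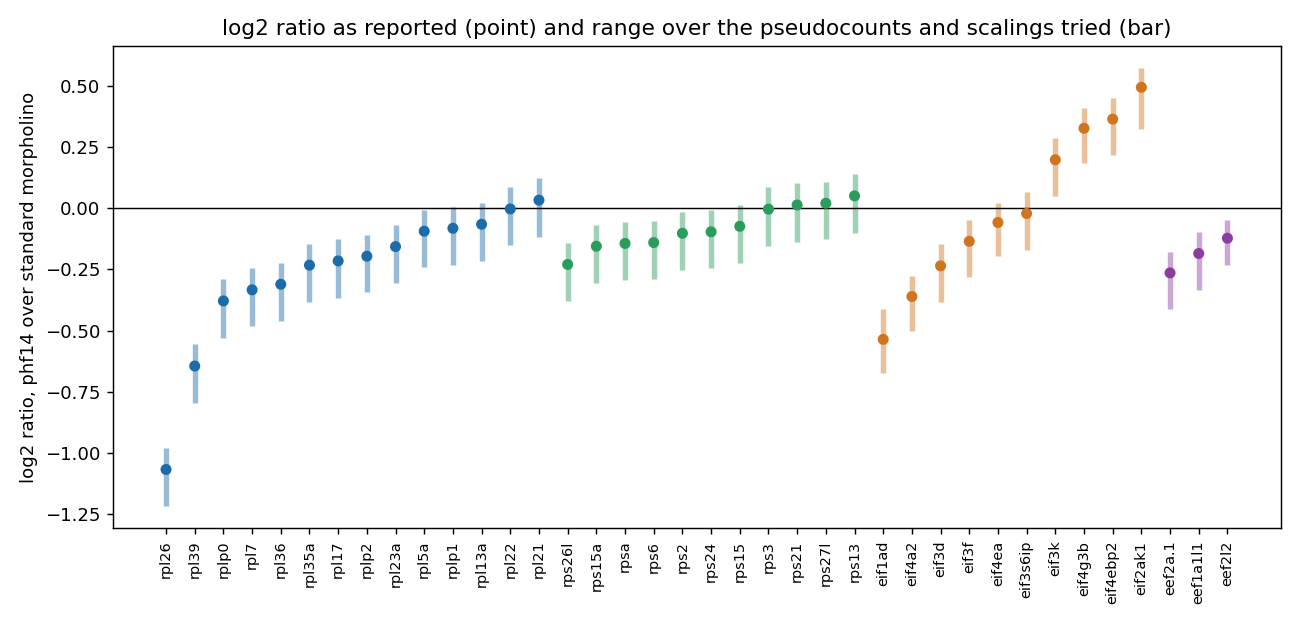
log2 ratio of the phf14 over the standard morpholino library for 38 of the genes as reported (point), with the lowest and highest value over the pseudocounts and scalings tried (bar), in family order. The bar of rpl26 runs from -1.22 to -0.98 and that of rpl39 from -0.79 to -0.56, whereas most genes reported near 0 have bars that cross 0.

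Across the pseudocounts and scalings, 23 of the 39 genes were lower in the phf14 library under each setting, 4 were higher under each, and 12 changed sign. The 4 were eif3k, eif4g3b, eif4ebp2 and eif2ak1. Because a scaling moves all genes by nearly the same amount, a kept sign follows from the size of the reported ratio and does not measure noise. The share of all genes that kept their sign was not computed. The 12 genes that changed sign were 4 large subunit genes (rpl13a, rpl21, rpl22 and rplp1), 6 small subunit genes (among them rps3, rps13, rps15, rps21 and rps27l) and the initiation factor genes eif3s6ip and eif4ea, all with a reported log2 ratio between -0.09 and 0.05.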

How the data were processed

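Per the labels' protocols, libraries were made with an Illumina TruSeq RNA kit from 1 ug of total RNA of whole embryos. The expression signal deposited by the authors comes as 1 table per library, in which its column bears no unit. The scale, aligner, build, annotation and counting method are not stated there or in the labels. Sequencing depth is therefore unknown. Reads shared by near-identical gene copies, such as eef1a1l1 and its relatives, may have been split between them.

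Computed here, with Python 3.11.15, numpy 2.4.6 and pandas 2.3.3, were log2(value + 1) ratios for 3524 genes (mean of 1 or more), their medians, counts past 1.5-fold and 2-fold, and medians in bands of the mean (1 to 10, 10 to 100, and 100 or more). The ratio code was tested on simulated data. With 1 library per group there was no test. Alternatives were a pseudocount of 0.1 or 5, subtraction of the median gene's ratio, an unweighted trimmed mean factor (dropping 30% of ratios and 5% of levels on each side), no filter, a mean of at least 5, and list means. Scaling to the sum of listed values was added after seeing the data. In the gene name table all 39 identifiers were present, and 32 symbols were the same there apart from case. The members, markers and gene lists were chosen with earlier results of these data known. The naming rule (genes past 1.5-fold, the 4 highest and 4 lowest ratios and the 3 highest means of each family, and copies of a gene) left few genes out, and those are given too. A planned look at protein and start site sequences was not made. A gene of the rps family enters the counts and medians but is not reported singly here.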

Additional observations from a re-analysis of the deposited data

How the results depend on the processing

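With centring on the median gene, the medians of rpl, rps, eif and eef genes were -0.32, -0.20, -0.15 and -0.29. With the trimmed mean factor they were -0.35, -0.24, -0.18 and -0.34. Scaling to the sum of listed values, chosen after seeing the data, gave -0.118, -0.0023, 0.0447 and -0.0959, so the eif median changed sign. The eif list mean was 0.00355, also of the other sign. Scaling to the sums also left 1 gene past 1.5-fold lower and 0 past 2-fold lower, since rpl39 and rpl26 then had log2 ratios of -0.56 and -0.98. Pseudocounts of 0.1 and 5, no filter and a mean of at least 5 left the 4 medians within 1.5 times and the 4 counts as reported. Centring and the trimmed mean factor brought eif1ad past 1.5-fold (-0.65 and -0.67), which made 3 genes past 1.5-fold lower. No replicate spread exists to set these moves against. No paired analysis was possible because each condition has a single library, which also means that none could be omitted.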
